A study of Mus musculus with 4 samples.

Results

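The interferon regulatory factor (IRF) genes Irf1, Irf2, Irf3, Irf5, Irf7, Irf8 and Irf9, the signal transducer gene Stat2 and the feedback protease gene Usp18 were examined in 3T3-F442A adipocytes, fat cells formed in culture from a mouse preadipocyte line. Every probe set annotated to exactly 1 gene was taken where that gene was one of these 9, which gave 15 of the 22626 probe sets on the arrays. Irf3 was read by 4 probe sets, Irf5, Irf8 and Stat2 by 2 each, and the other genes by 1. The study held 4 Affymetrix arrays of total RNA, 2 labelled shGFP (a retroviral short hairpin against GFP, labelled as control) and 2 labelled shTRPV4 (a hairpin against the calcium-permeable channel gene Trpv4, labelled as a knockdown). The cells of all 4 arrays carried a hairpin and, as preadipocytes, had been kept in puromycin (2 ug/ml) over 2 days to remove cells without it. Insulin at 850 nM was given to the cells of all 4 arrays during 8 days of differentiation, joined by rosiglitazone on the first 2 days. No wild-type or uninfected cells were measured, and the labels name 1 control hairpin and 1 hairpin against Trpv4. The labels do not tell whether replicates came from different infections or dishes, so the p-values describe the spread between these arrays only, which may be technical. The comparison asks how the transcripts of fat cells with the Trpv4 hairpin differ from those of fat cells with the control hairpin.

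Type I interferon binds a receptor of the subunits IFNAR1 and IFNAR2, and the kinases JAK1 and TYK2 then phosphorylate STAT2. Phosphorylated STAT2 acts with IRF9 in a complex called ISGF3, which activates genes through a DNA element known as the interferon-stimulated response element (ISRE). IRF3 and IRF7 act a step earlier, switching on the interferon genes after sensors of nucleic acids or bacterial products have fired, and USP18 closes the loop by blocking the receptor and removing the ubiquitin-like protein ISG15 from its targets. In fat cells, IRF family members have been described as regulators of adipogenesis and lipid handling.

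RefSeq promoter windows (GRCm38.p6, from 250 bases before to 50 bases after an annotated start) were at hand for 8 of the 9 genes, all but Usp18, in 11 windows. They were searched on both strands for an ISRE core (GAAANNGAAA, or TTTCNNTTTC on the other strand), for the core of the interferon gamma-activated STAT site known as GAS (TTCNNNGAA, which reads the same on both strands) and for an NF-kappaB core (GGGAANNNCC, or GGNNNTTCCC). An ISRE core lay in 2 of the 11 windows (Irf2 and Stat2), against 3.44% of all 32851 windows of 300 bases. A GAS core lay in 3 windows (Irf1, Irf2 and Irf8), against 8.30% of all windows. The NF-kappaB core lay in 0 of the 11, against 5.78% of all windows. The stretches around the ISRE and GAS matches are shown because these are the letters by which the factors studied here are known to bind DNA. Capitals mark the matches, and each stretch runs 5′ to 3′ on the plus strand, at chr11:53769912-53769944 (Irf1), chr8:46739495-46739541 (Irf2), chr8:120736175-120736225 (Irf8) and chr10:128270264-128270297 (Stat2).
Irf1: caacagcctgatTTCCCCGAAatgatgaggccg
Irf2: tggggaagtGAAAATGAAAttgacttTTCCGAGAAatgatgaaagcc
Irf8: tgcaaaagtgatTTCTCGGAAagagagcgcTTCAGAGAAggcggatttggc
Stat2: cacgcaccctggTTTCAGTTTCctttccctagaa

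The GAS core of Irf1 was centred 86 bases before the start and the ISRE core of Stat2 217.5 bases before it. The Irf2 window held its ISRE core 236.5 bases and its GAS core 220 bases before the start. The Irf8 window held 2 GAS cores, 167 and 149 bases before the start. Both windows of Irf9, at chr14:55603735-55604034 and chr14:55604329-55604628 on the plus strand, held none of the 3 cores. They are printed whole, as the windows of the transcription factor gene with the largest difference between the groups, and carry no capitals because nothing in them matched.
Irf9 first start: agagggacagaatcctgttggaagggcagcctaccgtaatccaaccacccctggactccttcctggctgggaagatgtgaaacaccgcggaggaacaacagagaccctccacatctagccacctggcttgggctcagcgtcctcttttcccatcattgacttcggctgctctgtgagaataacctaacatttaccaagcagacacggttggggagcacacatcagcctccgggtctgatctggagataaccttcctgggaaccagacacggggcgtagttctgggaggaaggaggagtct
Irf9 second start: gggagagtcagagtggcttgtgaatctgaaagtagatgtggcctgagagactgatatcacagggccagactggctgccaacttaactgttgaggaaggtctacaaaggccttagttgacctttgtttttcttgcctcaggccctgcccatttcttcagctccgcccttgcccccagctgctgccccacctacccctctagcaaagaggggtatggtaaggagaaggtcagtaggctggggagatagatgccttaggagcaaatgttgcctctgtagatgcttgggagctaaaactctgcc

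Irf9 and Usp18 were lower in the arrays labelled shTRPV4, and none of the 15 probe sets was called higher. Irf7, Irf1, both Stat2 probe sets, Irf3 1435271_at, Irf5 1460231_at and Irf8 1416714_at also read lower on both shTRPV4 arrays but did not pass the test. Such a gap between the groups, shTRPV4 lower, holds for 30.3% of all probe sets. The Irf1, Irf2, Irf3, Irf5 and Irf8 probe sets and Stat2 1450403_at (−0.16) differed by at most 0.30 in either direction on the log2 scale. None of these passed. Differences were fitted with limma on log2(intensity + 16) after quantile normalization, over all probe sets, with the threshold at a Benjamini-Hochberg adjusted p under 0.05. The offset of 16 makes the changes of dim probe sets look smaller than they are. By this test 2 of the 15 probe sets (13.3%) were lower, where 5.36% of all probe sets were, and 0 of 15 were higher, where 4.54% of all were. At an unadjusted p under 0.05 limma called 4 of the 15 lower, where 14.3% of all probe sets were, and 0 higher, where 16.3% of all were. The background itself depends on the scaling, with 1213 lower and 1027 higher probe sets here, 1161 and 600 with the values as deposited, and 1141 and 1662 with median centring. In RNA from whole cultures, fewer cells of a kind and less RNA per cell cannot be told apart.

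The deposited intensities of the 2 groups did not overlap for 11 of the 15 probe sets. The shTRPV4 arrays read lower for 9 of them, which holds for 30.3% of all probe sets, and higher for 2, which holds for 26.2% of all. The median difference over the 15 was −0.15, beside 0.02 over all probe sets. The arrays themselves repeated well, with a median absolute log2 difference over probe sets of 0.12 between the shGFP arrays, 0.10 between the shTRPV4 arrays and 0.20 to 0.22 across the groups. Trpv4 (1417545_at) read 43.7 and 93.8 on the shGFP arrays and 80.1 and 79.5 on the shTRPV4 arrays (adjusted p = 0.55), so the knockdown itself was not seen on these arrays and the groups are called by their labels.

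**Figure D1:**
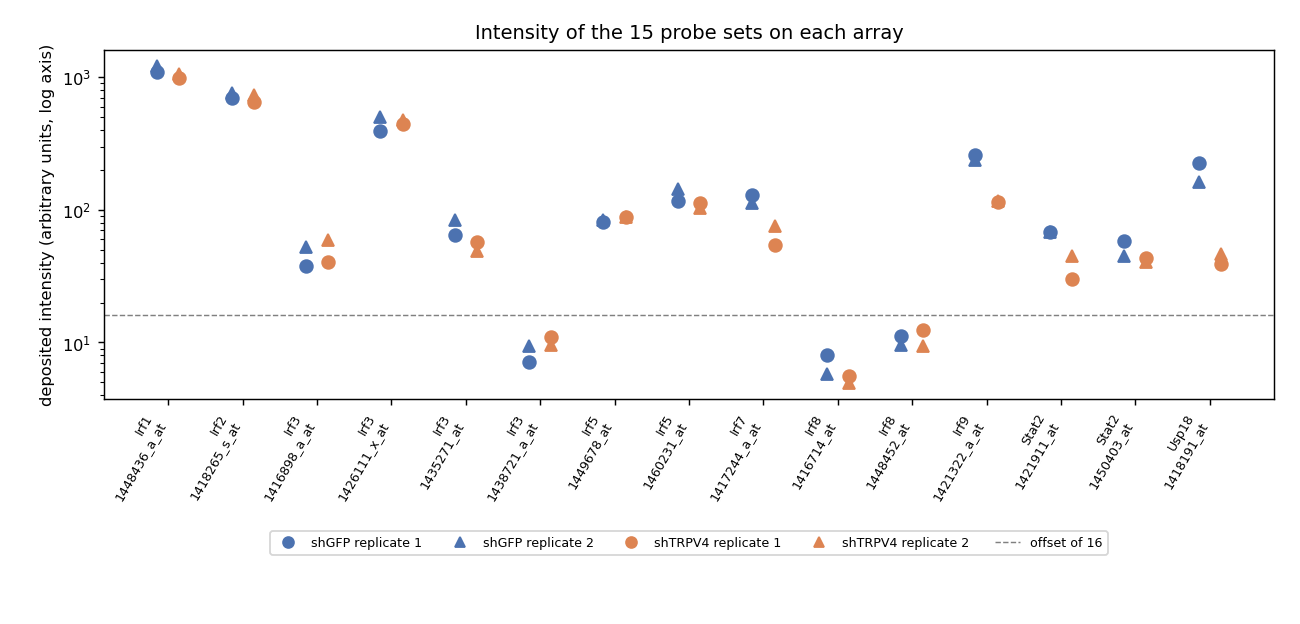
Deposited intensity (log axis, arbitrary units) of each of the 15 probe sets on each array, with shGFP in blue, shTRPV4 in orange, circles for replicate 1 and triangles for replicate 2. Usp18 and Irf9 have the widest gaps between colours, and both Irf8 probe sets and 1 Irf3 probe set lie under the dashed offset of 16.

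Irf9 is the DNA-binding subunit of ISGF3. Its probe set 1421322_a_at read 256.7 and 238.1 on the shGFP arrays and 114.1 and 116.1 on the shTRPV4 arrays. Both shTRPV4 readings lay well under both shGFP readings, and the 2 shTRPV4 arrays were nearly alike. Irf9 fell 1.89-fold (log2 difference −0.92, SE 0.09, 95% interval −1.17 to −0.67, limma adjusted p = 0.022), lower in 2 of 2 shTRPV4 arrays.

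Stat2 encodes the signal transducer that IRF9 brings to DNA and that activates transcription there. Probe set 1421911_at read 67.7 and 67.6 on the shGFP arrays and 30.0 and 44.6 on the shTRPV4 arrays. The groups did not overlap, but the shTRPV4 arrays stood apart from each other, and the probe set did not pass (−0.60, SE 0.17, 95% interval −1.09 to −0.12, adjusted p = 0.11). Its difference was −0.39 without shTRPV4 replicate 1 and −0.34 with an offset of 64, and it passed under none of the settings tried (adjusted p from 0.058 to 0.29). Probe set 1450403_at read 57.9 and 44.9 on the shGFP arrays and 43.7 and 40.2 on the shTRPV4 arrays. Its gap between the groups was narrow, and it did not pass either (−0.16, SE 0.13, 95% interval −0.51 to 0.20, adjusted p = 0.48). The 2 Stat2 probe sets had the same sign, and neither differed beyond what the test allows. The ISRE core of the Stat2 promoter window is printed above.

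Usp18 had the largest difference of the 15. Its probe set 1418191_at read 223.4 and 162.0 on the shGFP arrays and 39.2 and 46.3 on the shTRPV4 arrays. The lowest shGFP reading was far above the highest shTRPV4 reading, although the shGFP arrays differed from each other. Usp18 fell 3.36-fold (−1.75, SE 0.21, 95% interval −2.34 to −1.16, limma adjusted p = 0.0295), lower in 2 of 2 shTRPV4 arrays. The size depended on the offset, from −2.05 with 1 to −1.21 with 64.

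The calls on Irf9 and Usp18 rest on all 4 arrays and on the offset. With an offset of 1 neither passed (adjusted p = 0.051 for Irf9 and 0.060 for Usp18). With any 1 array left out limma called 0 of all probe sets, with 1 residual degree of freedom. At an unadjusted p under 0.05 those fits gave 4543 to 5913 probe sets. In them the Irf9 difference ran from −1.01 to −0.84 (adjusted p from 0.13 to 0.20) and the Usp18 difference from −1.99 to −1.50 (adjusted p from 0.13 to 0.20).

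**Figure D2:**
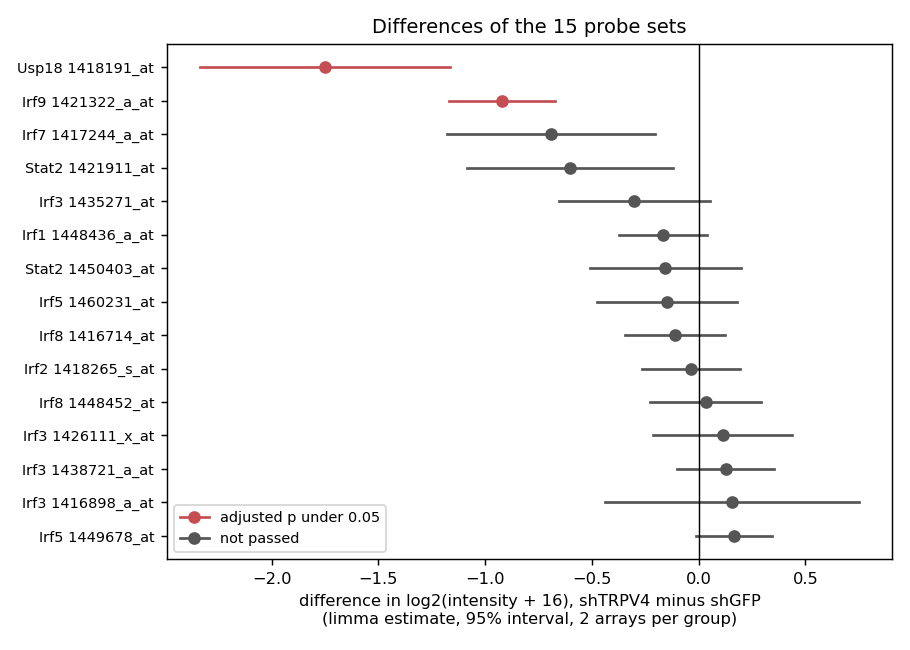
Difference in log2(intensity + 16) between the arrays labelled shTRPV4 and shGFP for each of the 15 probe sets, with 95% intervals from limma. Usp18 (−1.75) and Irf9 (−0.92), in red, passed the threshold, the intervals of Irf7 and of Stat2 1421911_at lie below 0 without an adjusted p under 0.05, and the other 11 intervals include 0.

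Irf7 encodes the factor that drives the interferon alpha genes and is itself induced by interferon. Its probe set 1417244_a_at read 128.7 and 112.9 on the shGFP arrays and 54.6 and 76.1 on the shTRPV4 arrays. Both shTRPV4 readings were under both shGFP readings, with a spread within each group. Irf7 did not pass (−0.69, SE 0.17, 95% interval −1.18 to −0.20, adjusted p = 0.090). When the dimmest 25% of probe sets were left out of the test, the same difference had a limma adjusted p of 0.044. It passed under none of the other settings tried, and over all of them the difference ran from −0.88 to −0.47.

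Irf3 encodes the factor that the kinase TBK1 activates after viral nucleic acid has been sensed, and its transcript is known to be made without stimulation in many cells. Probe set 1426111_x_at, which stands for Irf3 in the counts by gene, read 392.2 and 499.8 on the shGFP arrays and 446.6 and 477.1 on the shTRPV4 arrays. The groups overlapped (0.11, SE 0.12, 95% interval −0.21 to 0.44, adjusted p = 0.58). The suffix _x_at marks a probe set that can also read related transcripts. Probe set 1416898_a_at overlapped too, with 38.0 and 52.9 against 40.7 and 59.7 (0.16, 95% interval −0.44 to 0.75). Probe set 1435271_at read 64.9 and 83.3 on the shGFP arrays and 57.6 and 49.3 on the shTRPV4 arrays, with no overlap and the opposite sign (−0.30, 95% interval −0.65 to 0.05, adjusted p = 0.21). The fourth, 1438721_a_at, read from 7.12 to 11.1 on the 4 arrays, below the offset (0.13, adjusted p = 0.38). So the Irf3 probe sets differed in sign among themselves, and none passed.

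Irf5 encodes a factor that acts after Toll-like receptors signal through the adaptor MyD88. Its probe set 1460231_at read 116.6 and 144.6 on the shGFP arrays and 112.3 and 102.5 on the shTRPV4 arrays (−0.15, 95% interval −0.48 to 0.18, adjusted p = 0.46). Probe set 1449678_at went the other way, with 80.3 and 83.6 against 88.9 and 87.6 (0.17, 95% interval −0.01 to 0.35, adjusted p = 0.18). In neither did the groups overlap, and the opposite signs leave Irf5 without a direction.

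Irf1 encodes an activator that interferon gamma induces through the GAS site, and Irf2 a factor that competes with it for the same DNA element. Irf1 (1448436_a_at) read 1094 and 1217 on the shGFP arrays and 977.4 and 1049 on the shTRPV4 arrays. The shTRPV4 readings were slightly under the shGFP readings, by less than the test could tell from the spread (−0.17, SE 0.07, 95% interval −0.37 to 0.04, adjusted p = 0.23). Irf2 (1418265_s_at, of a kind that can read several transcripts) read 702.0 and 760.1 against 646.3 and 737.5, and the groups overlapped (−0.04, 95% interval −0.27 to 0.19, adjusted p = 0.80). With median centring the Irf2 difference had the opposite sign (0.02). The intervals leave room for a fall of Irf1 of up to 0.37 and of Irf2 of up to 0.27 on the log2 scale.

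Irf8 encodes a factor known from macrophages, dendritic cells and B cells. Its probe sets read from 4.91 to 8.09 (1416714_at) and from 9.33 to 12.4 (1448452_at) on the 4 arrays, all below the offset. The differences were −0.11 (adjusted p = 0.44) and 0.03 (adjusted p = 0.85), of opposite sign. The files give no background level, so these readings cannot be told from no signal, and no direction is given for Irf8.

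**Figure D3:**
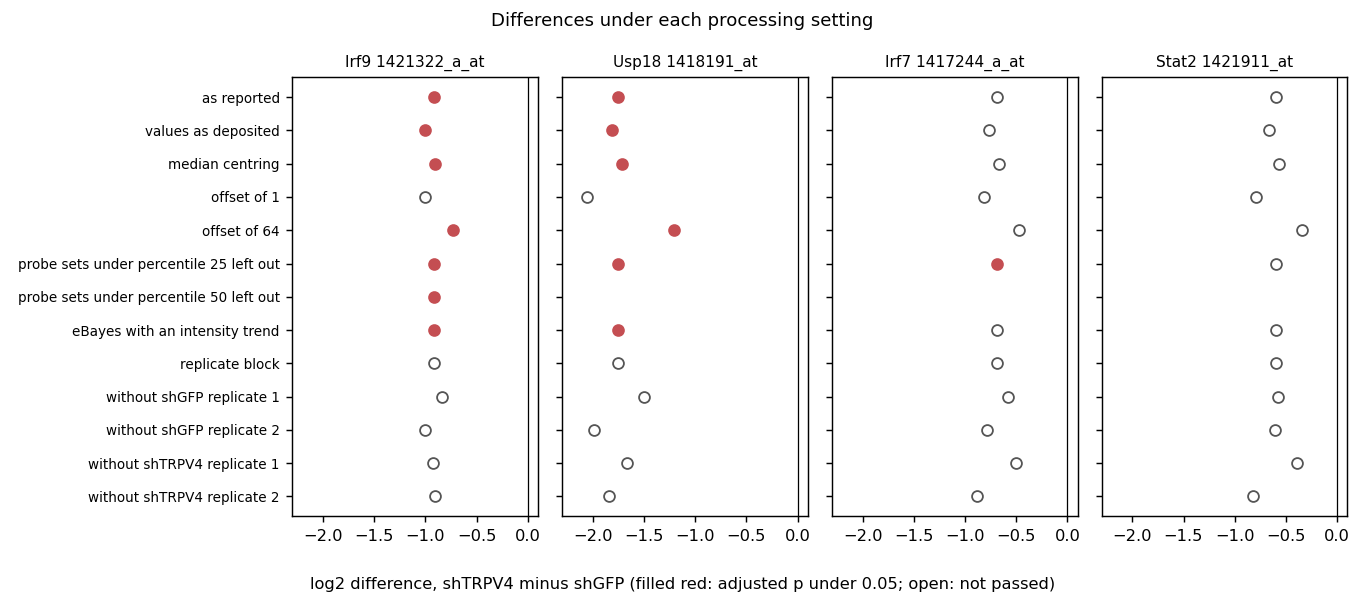
The log2 difference (shTRPV4 minus shGFP) of the 4 probe sets with the largest differences under each processing setting, filled red where the adjusted p was under 0.05 and open where it was not; no point is drawn where the setting leaves the probe set out. Under each setting shown, the 4 differences stay below 0, and the calls of Irf9 and Usp18 are lost with an offset of 1, with the replicate block and with any array left out.

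Profiles near those of the called members were sought by Euclidean distance over the 4 arrays between normalized log2 values centred on their own mean. The nearest to Irf9 were Wnt6 (distance 0.02, difference −0.92) and Nudcd1 (distance 0.02, difference −0.94). The nearest to Usp18 were Fhl1 (distance 0.08, difference −1.80) and Lep (distance 0.09, difference −1.77). With 4 arrays in 2 groups this likeness is mostly that of the group difference itself.

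The other genes of the pathway were counted from lists, with the brightest probe set of a gene on the normalized log2 scale standing for it. On this basis 6.00% of the 12393 genes were lower and 5.33% higher in the arrays labelled shTRPV4, with a median difference of 0.02. At an unadjusted p under 0.05, 15.2% of all genes were lower and 17.9% higher, which is the background for the unadjusted count of each list. By this rule 2 of the 9 genes studied here were lower and 0 higher, with a median of −0.17.

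Both subunits of the type I interferon receptor were lower, and so was Jak2. Of 8 receptor and Janus kinase genes measured, 3 were lower (37.5%) and 0 higher, with a median of −0.10. Ifnar1, the first subunit of the type I interferon receptor, read 628.2 and 650.1 against 446.9 and 463.9 and fell by 0.43 (SE 0.06, adjusted p = 0.039). Ifnar2, the subunit to which USP18 is known to bind, read 1925 and 2035 against 1260 and 1357 and fell by 0.56 (SE 0.065, adjusted p = 0.028). Its second probe set, 1427691_a_at, fell by 1.12 (adjusted p = 0.017). Jak2, a kinase of the interferon gamma receptor, fell by 0.40 on its brightest probe set (adjusted p = 0.046), a call lost with median centring (adjusted p = 0.058). Its second probe set, 1421065_at, fell by 0.51 (limma adjusted p = 0.032). On the brightest probe sets, the calls of these 3 genes were all lost with an offset of 1. The kinases of the type I receptor differed upward without passing, Jak1 by 0.32 (adjusted p = 0.065) and Tyk2 by 0.48 (adjusted p = 0.052). Both of these passed with median centring and with an offset of 64. The 2 interferon gamma receptor genes, chosen after their values were seen, did not pass (Ifngr1 −0.03, adjusted p = 0.79, and Ifngr2 −0.16, adjusted p = 0.31).

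Among 16 genes that lead to activation of IRF3, IRF5 or IRF7, 4 were lower (25%) and 0 higher, with a median of −0.12. Tlr2, a receptor for bacterial lipoproteins, had by far the largest difference (−2.99, SE 0.06, adjusted p = 0.015). Irak1, a kinase that MyD88 recruits, fell by 0.91 (SE 0.10, adjusted p = 0.028), and all 4 of its probe sets were lower, by 0.82 to 1.02. Tlr3, a receptor for double-stranded RNA, fell by 0.84 (SE 0.11, adjusted p = 0.032) on its brightest probe set, while its second one, 1422781_at, did not pass (−0.50, adjusted p = 0.089). Sting1, the adaptor of cytosolic DNA sensing, read 96.6 and 120.9 against 54.9 and 58.8 and fell by 0.69 (SE 0.11, adjusted p = 0.043). With an offset of 1 only Tlr2 kept its call. Tlr4, the receptor for bacterial lipopolysaccharide (0.71, adjusted p = 0.063), and Mavs, the adaptor of cytosolic RNA sensing (0.52, adjusted p = 0.059), differed upward without passing, and both passed with median centring and with an offset of 64. Tbk1, the kinase of IRF3, was chosen after its value was seen and did not pass (−0.10, adjusted p = 0.45).

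The interferon genes themselves read low. All 9 that were measured lay under the median brightness of the arrays, with 39.4 as the highest single reading. Of the 9, 0 passed in either direction with limma (0 also under every other scaling and offset tried), and 1, downward, had an unadjusted p under 0.05. The median was 0.01. Ifnb1, which encodes interferon beta, read 17.7 and 26.0 on the shGFP arrays and 34.7 and 24.8 on the shTRPV4 arrays, chosen after its values were seen (0.30, 95% interval −0.18 to 0.77, adjusted p = 0.32). The groups overlapped, and the readings were near the offset.

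Of 53 interferon-induced genes, 27 were lower (50.9%) and 0 higher, with a median of −0.66. The 4 with the largest differences were the chemokine gene Cxcl10 (−3.03), the oligoadenylate synthetase family genes Oasl2 (−3.02) and Oas1a (−2.77), and Ifit1, which encodes an antiviral RNA-binding protein (−2.84), with adjusted p from 0.015 to 0.020. At an unadjusted p under 0.05 limma gave 36 of the 53 as lower and 0 as higher, and 47 differences were below 0. Of the 26 that did not pass, some differed widely, such as Adar (−1.62, adjusted p = 0.059) and Zbp1 (−1.46, adjusted p = 0.096). Others lay nearer 0, and all those named here as not passing were chosen after their values were seen. Mx1, which encodes an antiviral GTPase, read 28.4 and 28.3 against 33.2 and 20.4 (−0.04, adjusted p = 0.91). Oas2 differed by −0.01 (adjusted p = 0.94), Rsad2, which encodes viperin, by −0.14 (adjusted p = 0.74), and the nuclease gene Isg20 by −0.04 (adjusted p = 0.80). The count of lower genes in this list was 27 to 31 with the other scalings, with an offset of 64 and with probe sets averaged, and 9 with an offset of 1. The list includes genes already reported from these arrays and was chosen with those results known.

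The inhibitors and the remaining STAT and IRF genes showed few calls. Of 13 inhibitor and IRF2-binding protein genes, 1 was lower (7.69%; 3 with an offset of 64) and 0 higher, with a median of 0.00. The one was Socs3, a feedback inhibitor of Janus kinases, which read 2390 and 2277 against 813.0 and 731.3 (−1.54, SE 0.11, adjusted p = 0.017), with its other 2 probe sets at −1.55 and −1.43. Socs1, the inhibitor known for interferon signalling, read 62.0 and 94.2 against 55.6 and 73.3, with overlapping groups, and is named here with its values already known (−0.14, adjusted p = 0.71). Of 6 other STAT and IRF genes, 0 passed in either direction with limma (1 lower and 1 higher at an unadjusted p under 0.05), and with median centring or an offset of 64 only Stat5b did (adjusted p = 0.040 and 0.022, upward). Of 3 genes for attaching ISG15, which USP18 takes off again, 0 passed with limma, with a median of −0.25, and 3 were lower at an unadjusted p under 0.05. These were the activating enzyme gene Uba7 (−0.22, adjusted p = 0.16), the conjugating enzyme gene Ube2l6 (−0.59, adjusted p = 0.075, and 0.040 with an offset of 64) and Trim25 (−0.25, adjusted p = 0.12). Isg15 itself was not analysed here.

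**Figure D4:**
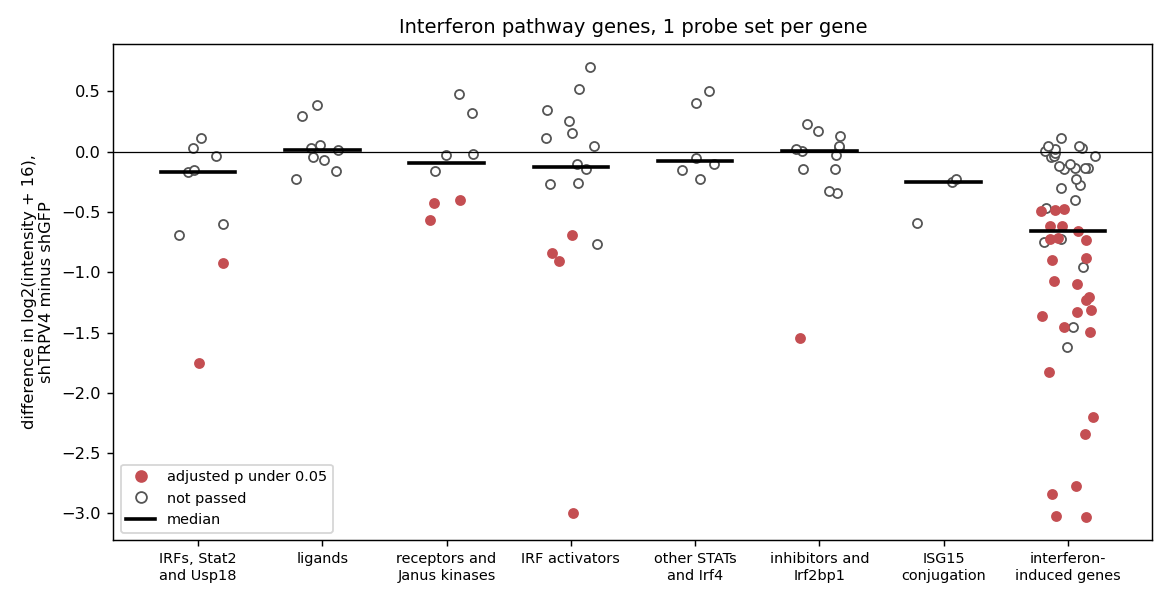
Difference in log2(intensity + 16) between the arrays labelled shTRPV4 and shGFP for each gene of the interferon pathway by role, 1 probe set per gene, filled where the adjusted p was under 0.05, with the median of each group of genes as a bar. The 9 genes studied here, at the left, have a median of −0.17, and the 53 interferon-induced genes, at the right, have a median of −0.66 with 27 filled points.

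Markers of other cells that are known to express these factors were read on the same arrays. Of 16 macrophage markers, 3 were lower (18.75%) and 2 higher (12.5%), with a median difference of 0.10, and 9 did not differ downward. Their summed intensity was 1104 and 1235 on the shGFP arrays and 865.0 and 828.9 on the shTRPV4 arrays. Cd14 (460.8 and 469.8 against 242.1 and 204.4) and Lyz2 (234.8 and 271.0 against 63.8 and 42.8) made up a large part of these sums. Without Cd14 and Lyz2, the sum of the remaining markers was higher on both shTRPV4 arrays than on either shGFP array. The lower sums therefore give no direction for the list. No marker read 0 on any array, and the median marker read from 24.9 to 31.1 on an array. The markers that were lower were Lyz2 (−1.89), Cd14 (−0.96) and Csf1r (−0.85, on 1 of its 3 probe sets), and those higher were Cd68 (1.49) and Cx3cr1 (1.19, on 1 of its 2 probe sets). With an offset of 1, 0 macrophage markers passed. The defining marker Ptprc read 5.43 to 11.3, below the offset, while Itgam read 9.0 to 29.5 and Adgre1 70.5 to 94.0, without passing. Of 13 dendritic and lymphoid markers, 0 passed with limma (0 also with each other scaling, and 2, lower, at an unadjusted p under 0.05), and their sums of 346.9 and 345.7 against 357.6 and 313.8 overlapped. Their part in the lower Irf9 and Usp18 was not tested.

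Adipocyte markers were bright in both groups, with Adipoq, which encodes adiponectin, at 11785 to 14169, and 4 of 11 were higher (Retn, Slc2a4, Cebpa and Pparg) and 0 lower. With an offset of 1 only Retn of these 11 passed. Of 14 preadipocyte and fibroblast markers, 4 were lower (28.6%) and 0 higher, with a median of −0.09. Pdgfra (−1.25) and Dlk1 (−1.24) were among the lower ones. The list was not uniform, as 5 of the 14 did not differ downward. At an unadjusted p under 0.05 limma gave 4 lower and 3 higher, where 15.2% and 17.9% of all genes were. The part of these marker differences in the values of Irf9 and Usp18 was not tested.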

How the data were processed

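The authors deposited 1 linear intensity per probe set and array. How these were summarised, background-corrected and scaled is not given in the labels or headers, and detection calls were not used. Depth does not apply to arrays, and precision is limited by 2 arrays per group. The medians of log2(intensity + 16) spanned 0.14 over the 4 arrays, above the limit of 0.1, so values were quantile normalized. The R package limma (version 3.58.1, under R 4.3.3) fitted all 22626 probe sets with moderated variances and 2 residual degrees of freedom. A check on simulated data required the right signs and sizes of differences and set no demand on the calls. Genes were named from the platform annotation: 20380 probe sets had 1 gene symbol, 691 several and 1555 none. Of 198 listed genes, 36 had no probe set naming them alone and are not analysed here.

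Every probe set of the 9 genes is reported. From each list up to 4 called genes with the largest differences are named, with defining markers. The members and lists were chosen with earlier results of these data known. Alternatives were other scalings, offsets of 1 and 64, filters on dim probe sets, an intensity trend, averaged probe sets, the replicate number as a block and each array left out.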

Additional observations from a re-analysis of the deposited data

How the results depend on the processing

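Of the 15 probe sets, 2 were lower and 0 higher under the values as deposited, median centring, an offset of 64 and an intensity trend, and 3 were lower (with Irf7) when the dimmest 25% were left out. With an offset of 1 the count was 0, and with the dimmest 50% left out it was 1 of the 4 probe sets left. With the replicate block 0 of the 15 and 0 of all probe sets passed (Irf9 −0.92, adjusted p = 0.076; Usp18 −1.75, adjusted p = 0.085), and leaving out an array gave 0 to 0. These fits have 1 residual degree of freedom, and at an unadjusted p under 0.05 the block fit gave 6858 probe sets. The deviations of same-numbered arrays from their group means correlated at 0.12, and the labels give the number no meaning. Over all probe sets, the lower and higher counts were 426 and 180 with an offset of 1, 1986 and 2130 with an offset of 64, 1973 and 2063 without the dimmest 25%, 2251 and 2637 without the dimmest 50%, and 1980 and 2170 with an intensity trend. The higher count was 600 with the values as deposited and 1662 with median centring.

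Signs turned only among differences that had not passed. Irf2 was at 0.017 with median centring and from −0.11 to 0.030 with an array left out. Irf3 ran from −0.060 to 0.38 (1416898_a_at) and from −0.021 to 0.25 (1426111_x_at), and Irf8 (1448452_at) from −0.050 to 0.11. With probe sets averaged, Irf5 was at 0.0083 and Irf8 at −0.040. The causes were not tested. How far signals stood above background is unknown.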
